A study of Arabidopsis thaliana with 14 samples.

Results

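The 10 genes described here report or store the iron of a leaf, and 4 of them were abundant enough in rosettes of Arabidopsis thaliana to be followed through cold- and light-triggering. They were taken by their AGI codes from a table of 27861 genes: the subgroup Ib bHLH factors bHLH38 (AT3G56970), bHLH39 (AT3G56980), bHLH100 (AT2G41240) and bHLH101 (AT5G04150), POPEYE (PYE, AT3G47640), the IRON MAN peptides IMA1 (AT1G47400) and IMA2 (AT1G47395), and the ferritins FER1 (AT5G01600), FER3 (AT3G56090) and FER4 (AT2G40300). PYE and the 3 ferritins passed the filter on low values, which asked for at least 0.5 FPKM (fragments per kilobase, scaled to the mapped reads of a library) in both untriggered libraries and a mean of at least 2 FPKM, and which 15001 of all genes passed. The other 6 are given by their levels.

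The study asked how a past cold exposure alters the first responses to a new stress. Plants of accession Col-0 were grown in soil at 20 °C for 28 days, and primed plants (P) then spent 24 h at 4 °C, whereas control plants (C) did not. After 5 days at 20 °C both were harvested untriggered (C0, P0), or after 30, 60 or 120 min at 4 °C under growth light (suffix C) or at 20 °C under heat-filtered high light of 800 µmol m-2 s-1 (suffix L). Each of the 14 conditions is 1 library made from pooled whole rosettes of at least 5 plants, so no value has a replicate and no condition could be tested by itself. The pairs of conditions matched in time and trigger are counted by direction, without a test over them, and ratios are given as descriptions with 95% intervals that cover counting error only. The untriggered plants were harvested before triggering began, so time of triggering and time of day cannot be told apart in a ratio to C0 or P0. The ratio of light to cold at the same time cancels only a time-of-day change that is equal under both triggers. It does not show which trigger moved a gene.

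Plants keep free iron low because it forms radicals with hydrogen peroxide. When leaves or roots run short of iron, the subgroup Ib bHLH genes, PYE and the IMA peptides are switched on, and root uptake and internal mobilisation follow. Ferritins are plastid protein shells that hold surplus iron, and their genes are switched on by iron excess and by oxidative stress, whereas iron shortage keeps them low.

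FER1 lies on chromosome 5 (227953 to 230051) and FER3 on chromosome 3 (20813904 to 20816035) of TAIR10.1, whose nuclear sequence is that of TAIR10, both on the minus strand. The 250 bases before each annotated start are shown because these 2 genes rose most in light and only FER3 also passed the threshold in the cold. The letters were read from the RefSeq genome on the minus strand, at chr5:230052-230301 and chr3:20816036-20816285, and capitals mark the G-box CACGTG, a palindrome and so the same on both strands, which bHLH and bZIP factors can bind.
FER1: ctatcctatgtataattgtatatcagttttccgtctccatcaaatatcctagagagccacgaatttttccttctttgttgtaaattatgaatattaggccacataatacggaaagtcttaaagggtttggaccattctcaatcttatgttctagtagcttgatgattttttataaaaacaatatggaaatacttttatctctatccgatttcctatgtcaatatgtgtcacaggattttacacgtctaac
FER3: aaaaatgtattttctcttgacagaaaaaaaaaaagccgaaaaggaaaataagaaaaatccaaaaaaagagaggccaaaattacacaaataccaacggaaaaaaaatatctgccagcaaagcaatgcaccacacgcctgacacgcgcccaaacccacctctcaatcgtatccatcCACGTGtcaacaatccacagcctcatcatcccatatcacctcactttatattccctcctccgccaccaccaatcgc
The G-box stood at -76 to -71 in FER3, counted from the start, and these letters were not in the window of FER1. A window of the same length held it in 6.49% of 27443 protein-coding genes. Whether the G-box bears on the light or cold response of either gene was not tested. The coding sequences of FER3 and FER4 were 78.4% identical, those of FER1 and FER3 67.7% and those of FER1 and FER4 69.9%.

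IMA1 and IMA2 are neighbours on the plus strand of chromosome 1, with 1876 bases between IMA2 (17382998 to 17383830) and IMA1 (17385707 to 17386485). Their coding sequences are shown because fragments from them can be hard to assign: the 153 bases differed at 17 positions, in capitals, and shared an unbroken run of 55.
IMA1: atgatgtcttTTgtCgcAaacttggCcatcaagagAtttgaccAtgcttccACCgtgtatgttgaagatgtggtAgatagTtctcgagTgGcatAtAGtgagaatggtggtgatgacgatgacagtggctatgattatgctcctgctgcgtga
IMA2: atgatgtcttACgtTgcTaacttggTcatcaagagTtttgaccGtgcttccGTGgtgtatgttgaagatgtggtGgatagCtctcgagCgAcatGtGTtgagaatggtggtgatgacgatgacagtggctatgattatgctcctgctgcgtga
bHLH38 (21084035 to 21085245) and bHLH39 (21086390 to 21087710) are likewise neighbours, on the minus strand of chromosome 3, with 1144 bases between them. Their coding sequences were 84.8% identical over the aligned bases, with a longest shared run of 34. How fragments that fit both copies of such a pair were shared out is not given in the sources used here, so values of 1 gene of a pair are less certain than their sum. No other pair of members within a family exceeded 78.4% identity.

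Depth, estimated from the size of the smallest FPKM steps in each library, was 20.25 to 30.75 M counted fragments. The summed level of 4 leaf markers was 44520 to 57441 FPKM over the 14 libraries. IRT1, the iron transporter of the root epidermis, was listed at 0 in 11 of them. Other genes of the same root list were above 0 in all 14, among them BGLU42 (5.07 to 10.3 FPKM) and FIT (0.83 to 2.29 FPKM). That list summed to 10.2 to 15.4 FPKM, and the amount of root in the pools was not tested. The summed level of 8 phloem markers was 69.5 FPKM in C30C and 90.7 to 135 FPKM in all other libraries. Since the IMA genes, PYE and OPT3 are active in or near the vasculature, values that rest on C30C are named as such.

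FER1, the main leaf ferritin, was at 53.7 FPKM in C0 and 44.4 FPKM in P0. Under high light it rose with time, in control plants to 77.01, 178 and 439 FPKM at 30, 60 and 120 min. The values of primed plants were 99.9, 141 and 385 FPKM. All 6 light-triggered libraries were above both untriggered ones and above all 6 cold-triggered ones. In fold terms, C120L was 8.16 times C0 (log2 3.03, counting interval 2.96 to 3.10), which placed FER1 86th of 15001 genes from the highest. P120L was 8.68 times P0 (log2 3.12, interval 3.05 to 3.19), the 72nd highest. At 30 min P30L was 2.25 times P0, past the 1.5-fold threshold, and C30L was 1.43 times C0, short of it, and the difference between these responses was not tested. C30L was past it with median-ratio scaling, at log2 0.59, and with the mean of C0 and P0 as baseline, at 0.66.

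In the cold FER1 stayed within 1.5-fold of its start at every time. Its levels were 50.6, 60.2 and 56.5 FPKM in control plants and 48.1, 48.0 and 43.4 FPKM in primed plants. Set against cold at the same time, light gave 1.52, 2.96 and 7.77 times the level in control plants and 2.08, 2.93 and 8.88 times in primed plants. The first of these, C30L/C30C, was short of the threshold with either scaling between libraries, at log2 0.50 and 0.56.

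FER3 started at 21.4 FPKM in C0 and 20.0 FPKM in P0. Light took it to 27.3, 37.1 and 82.2 FPKM in control plants. In primed plants it reached 25.1, 32.5 and 71.5 FPKM. The rise after 120 min was 3.84-fold in control plants (log2 1.94, interval 1.81 to 2.07) and 3.58-fold in primed plants (log2 1.84, interval 1.72 to 1.96). Unlike FER1, FER3 was also past the threshold after 120 min in the cold, at 37.6 FPKM in C120C (1.76-fold, log2 0.81, interval 0.67 to 0.96) and 32.1 FPKM in P120C (1.61-fold, log2 0.68, interval 0.54 to 0.83). Light still gave 2.18 and 2.23 times the cold level at 120 min in control and primed plants.

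FER4, a ferritin that is found in mitochondria as well as plastids, moved least. It was at 21.8 FPKM in C0 and between 18.2 and 20.7 FPKM in the 3 cold-triggered control libraries. Primed plants had 17.4 FPKM in P0 and 16.8 to 17.4 FPKM in the cold. Light gave 20.0, 21.0 and 30.1 FPKM in control plants and 21.7, 23.5 and 27.7 FPKM in primed plants. Only P120L was past the threshold, at 1.59 times P0 (log2 0.67, interval 0.52 to 0.82). The control value at that time, 1.38 times C0, was not, though C120L had the higher level, and the difference between the 2 responses was not tested. With scaling by 8 reference genes, which lowered P120L against P0 by 0.23 on the log2 scale, FER4 in P120L was at log2 0.44 and no longer past the threshold. With the geometric mean of C0 and P0 as the start of both groups the order turned, with P120L at log2 0.51, short of the threshold, and C120L at 0.63, past it.

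**Figure D1:**
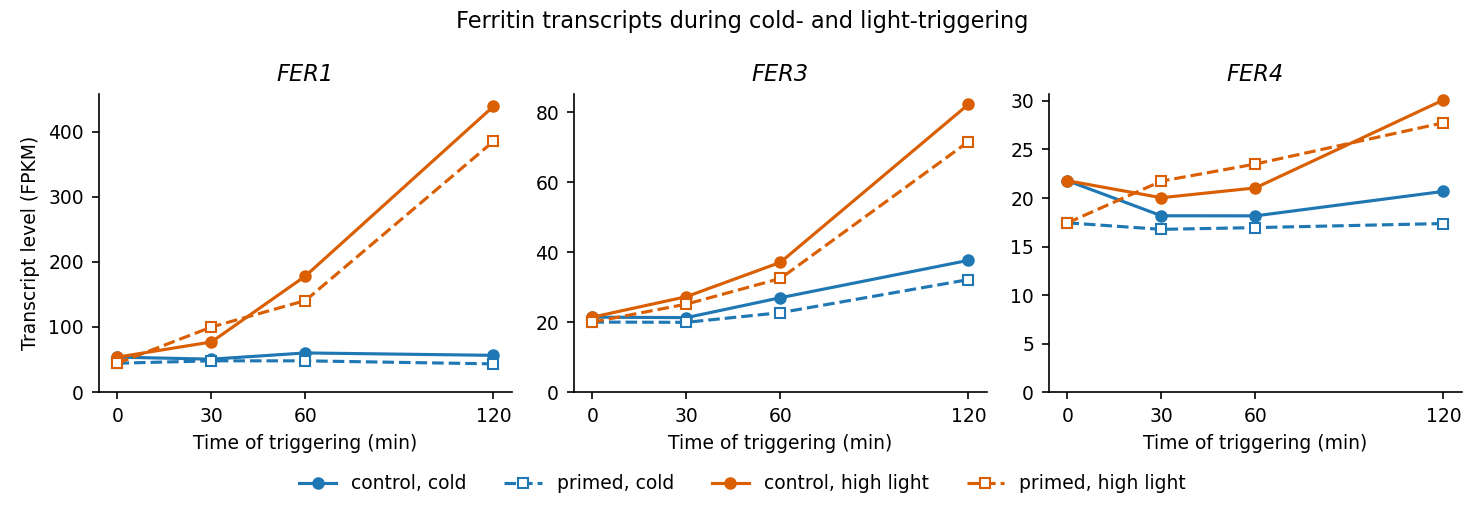
Transcript levels in FPKM (linear axes from 0, a different range for each gene) of FER1, FER3 and FER4 against time of triggering in min, for control plants (filled circles, solid lines) and primed plants (open squares, dashed lines) in cold (blue) and high light (orange). Each point is 1 library; FER1 climbs in light only, to 439 and 385 FPKM, FER3 climbs in light and less so in cold, and FER4 spans 16.8 to 30.1 FPKM.

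All 3 ferritins were higher in light than in cold in 6 of 6 pairs of libraries, as were 19.3% of the analysed genes. FER1 was the most abundant of the 3 in all 14 libraries. It made up 46.7% to 57.1% of their summed FPKM in untriggered and cold-triggered plants, and 79.6% in C120L and 79.5% in P120L. The sum itself was 96.9 FPKM in C0 and 81.8 FPKM in P0, and reached 551 FPKM in C120L and 484 FPKM in P120L. FER2, the ferritin of seeds, was at 0.16 to 0.45 FPKM in every library.

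The genes whose course was most like that of FER1 were named by the root mean square difference of log2(FPKM + 1) relative to C0 over the other 13 libraries. They were AT3G08640, a protein of the DUF3411 family (0.34), AT5G66590, a secreted CAP-family protein (0.36), the expansin EXPA16 (0.37), the pectin acetylesterase AT1G57590 (0.41) and the lignin enzyme CAD5 (0.43). FER3 stood at 0.67 on that measure. bHLH39 and IMA1 never moved by more than 0.38 and 0.72 on that scale, where the added 1 FPKM exceeds their own levels. The genes nearest to them therefore say little about their plain ratios. For bHLH39 the nearest was AT5G67540, at 8.54 FPKM in C0 and 7.89 FPKM in C120L. For IMA1 it was AT2G26030, at 3.71 FPKM in C0, 2.25 FPKM in C120L and 1.89 FPKM in C120C.

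PYE, a bHLH repressor of iron mobilisation genes such as NAS4, ZIF1 and FRO3, fell in the cold. Control plants had 4.87 FPKM in C0 and 3.75, 2.29 and 1.70 FPKM after 30, 60 and 120 min at 4 °C, the value at 30 min being that of C30C. Primed plants had 5.43 FPKM in P0, the same 5.43 FPKM in P30C, then 3.12 and 1.44 FPKM. From 60 min on, every cold-triggered library was below both untriggered ones. C60C was 2.13 times lower than C0 (log2 -1.09, interval -1.53 to -0.65) and C120C 2.86 times lower (log2 -1.52, interval -1.99 to -1.05). P60C was 1.74 times lower than P0 (log2 -0.80, interval -1.18 to -0.44) and P120C 3.77 times lower (log2 -1.91, interval -2.47 to -1.41). Among 15001 genes PYE was the 14860th from the highest in C120C/C0 and the 14943rd in P120C/P0.

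In high light PYE moved less. Its levels were 3.43, 3.09 and 3.90 FPKM in control plants, of which only the value at 60 min was past the threshold (1.58 times lower, log2 -0.66, interval -1.03 to -0.28). In primed plants they were 3.14, 3.32 and 3.32 FPKM, past the threshold at all 3 times, by 1.73, 1.64 and 1.64 times. The values at 60 min and that of P120L were short of 1.5-fold once 1 FPKM was added to each level, at log2 -0.52, -0.57 and -0.57. After 120 min light and cold had parted: PYE in light was 2.29 times its level in cold in control plants and 2.31 times in primed plants, and at 30 min in primed plants it was 1.73 times lower in light.

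Over the 4 analysed genes, 3 of the 12 gene-by-time values of control plants were past 1.5-fold in the cold, 1 upwards (FER3) and 2 downwards (PYE). At 30, 60 and 120 min these were 0, 1 and 2 of 4, and of all analysed genes 9.41%, 10.8% and 16.9% were past it in C30C/C0, C60C/C0 and C120C/C0. Primed plants also had 3 of 12, with 0, 1 and 2 of 4 against 7.82%, 11.8% and 18.5%. In light, control plants had 5 of 12 (0, 3 and 2 of 4, against 10.9%, 20.7% and 30.3%) and primed plants 9 of 12 (2, 3 and 4 of 4, against 15.2%, 21.2% and 25.9%). With the geometric mean of C0 and P0 as a common start these light counts were 7 and 8 of 12, and with scaling by the reference genes 5 and 7, and the difference between the groups was not tested. These 4 members are too few to set their shares against those of all genes. Light against cold gave 1, 1 and 3 of 4 in control plants (all genes 13%, 17.6% and 28.4%) and 2, 1 and 4 of 4 in primed plants (14.4%, 20.3% and 25.8%).

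The IMA peptides, which hold back the degradation of iron-deficiency bHLH factors, were weakly expressed. IMA1 was at 0.86 FPKM in both C0 and P0 and IMA2 at 0.85 and 0.90 FPKM, from an estimated 15 to 23 fragments each. Both genes were below both untriggered libraries in all 12 triggered ones, as were 5.27% of the 27438 genes above 0 in any library. IMA1 was at 0.14, 0.50 and 0.13 FPKM in the cold-triggered control plants and 0.59, 0.39 and 0.22 FPKM in the primed ones. In light it was at 0.57, 0.63 and 0.25 FPKM in control plants and 0.57, 0.38 and 0.18 FPKM in primed plants. The lowest levels of IMA1 were thus in C30C and after 120 min.

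IMA2 was at 0.22, 0.55 and 0.41 FPKM in cold-triggered control plants and 0.70, 0.82 and 0.31 FPKM in primed ones. Its light values were 0.45, 0.40 and 0.33 FPKM in control plants and 0.33, 0.40 and 0.29 FPKM in primed plants. The low C30C values of IMA1 and IMA2 rest on 3 and 4 estimated fragments, in the library whose phloem markers were lowest: 4 of 7 analysed phloem markers were past 1.5-fold lower in C30C than in C0. The part of the phloem markers in these values was not tested.

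**Figure D2:**
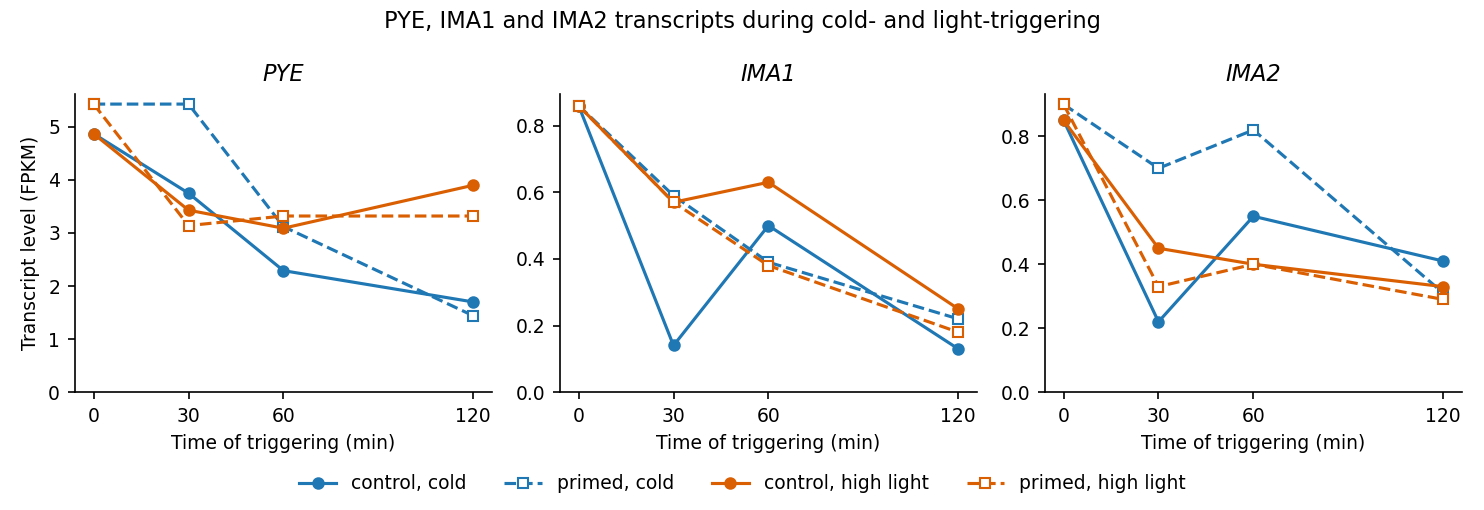
Transcript levels in FPKM (linear axes from 0, a different range for each gene) of PYE, IMA1 and IMA2 against time of triggering in min, with control plants as filled circles and primed plants as open squares, cold in blue and high light in orange, each point 1 library. PYE ends at 1.70 and 1.44 FPKM in cold and at 3.90 and 3.32 FPKM in light; the triggered IMA points all lie below their starts, lowest for IMA2 in control plants after 30 min of cold.

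The subgroup Ib bHLH factors, which pair with FIT to switch on root iron uptake, were close to the limit of detection in these rosettes. bHLH101 was the highest, at 0.41 FPKM in C0 and 0.40 FPKM in P0. It was at 0.42, 0.15 and 0.16 FPKM in the cold in control plants and 0.47, 0.15 and 0.05 FPKM in primed ones. In light it was at 0.08, 0.04 and 0 FPKM in control plants and 0.32, 0.04 and 0 FPKM in primed ones, and so was listed at 0 in both libraries of 120 min. bHLH39 was listed at 0 in 7 of 14 libraries, bHLH38 in 3 and bHLH100 in 2.

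Summed over the 4 factors, the level was 0.50 FPKM in C0 and 0.89 FPKM in P0. After 120 min of light it was 0.05 and 0.06 FPKM, from 1 and 2 estimated fragments, in control and primed plants. After 120 min of cold it was 0.27 and 0.24 FPKM. Untriggered, and after 30 and 60 min of cold, primed plants had the higher sum: 0.89 against 0.50, 1.15 against 0.51, and 0.94 against 0.41 FPKM. These rest on 29 against 11, 35 against 13 and 24 against 10 estimated fragments. The pair at 30 min includes C30C, the library with the lowest phloem markers.

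bHLH38, bHLH39 and bHLH100 were each higher in primed than in control plants in those 3 pairs, a pattern chosen after the values were seen. bHLH38 was at 0.18, 0.38 and 0.24 FPKM in P0, P30C and P60C and at 0.03 to 0.04 FPKM in C0, C30C and C60C. bHLH39 was at 0.09, 0.07 and 0.30 FPKM against 0, 0.03 and 0.09 FPKM. bHLH100 was at 0.22, 0.23 and 0.25 FPKM against 0.05, 0.03 and 0.13 FPKM. In the 4 other pairs the order went both ways for each of these genes. After 120 min of cold, primed against control plants had 0.08 against 0.07 FPKM of bHLH38, 0.11 against 0.04 FPKM of bHLH100, and bHLH39 was listed at 0 in both. At 30, 60 and 120 min of light bHLH38 was at 0, 0 and 0.06 FPKM in primed plants against 0.03, 0.06 and 0 FPKM in control plants. bHLH39 was there at 0, 0.03 and 0 FPKM against 0.03, 0 and 0 FPKM, and bHLH100 at 0.14, 0.14 and 0 FPKM against 0, 0.10 and 0.05 FPKM. Of genes with a mean under 0.5 FPKM, 5.4% were higher in primed plants in all 3 pairs, and of all genes above 0 in any library 11.4%.

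Of the 11 root iron uptake genes 2 were highest in P30C and 5 in P60C. Of 9 further root genes 0 were highest in P30C and 3 in P60C. Only 2 of the 11 root iron uptake genes passed the filter on low values. IRT1 was at 0.58 FPKM in P60C, 0.05 FPKM in C60C and at most 0.02 FPKM elsewhere, and CYP82C4, a root enzyme of coumarin synthesis under iron shortage, was at 0.19 FPKM in P60C, 0.02 FPKM in C60C and 0 elsewhere. F6H1, another coumarin enzyme, was at 2.95 FPKM in P30C, 0.70 FPKM in P60C and at most 0.43 FPKM elsewhere. Others were highest elsewhere, such as BGLU42 in C120L (10.3 FPKM) and FPN1 in C120C (3.67 FPKM). The summed level of the 11 root iron uptake genes was 10.2 to 15.4 FPKM over all libraries, of which BGLU42 gave 5.07 to 10.3 FPKM. The sum was 14.2 FPKM in P30C, 14.4 in P60C and highest in C120C. The sum of the 9 further root genes ranged from 11.6 to 28.6 FPKM, nearly all of it from PYK10. It was 15.5 FPKM in P30C, 22.9 in P60C and 14.1 in P0. None of the 20 root genes was at 0 in all libraries. The part of root tissue or root-type expression in the bHLH values was not tested.

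**Figure D3:**
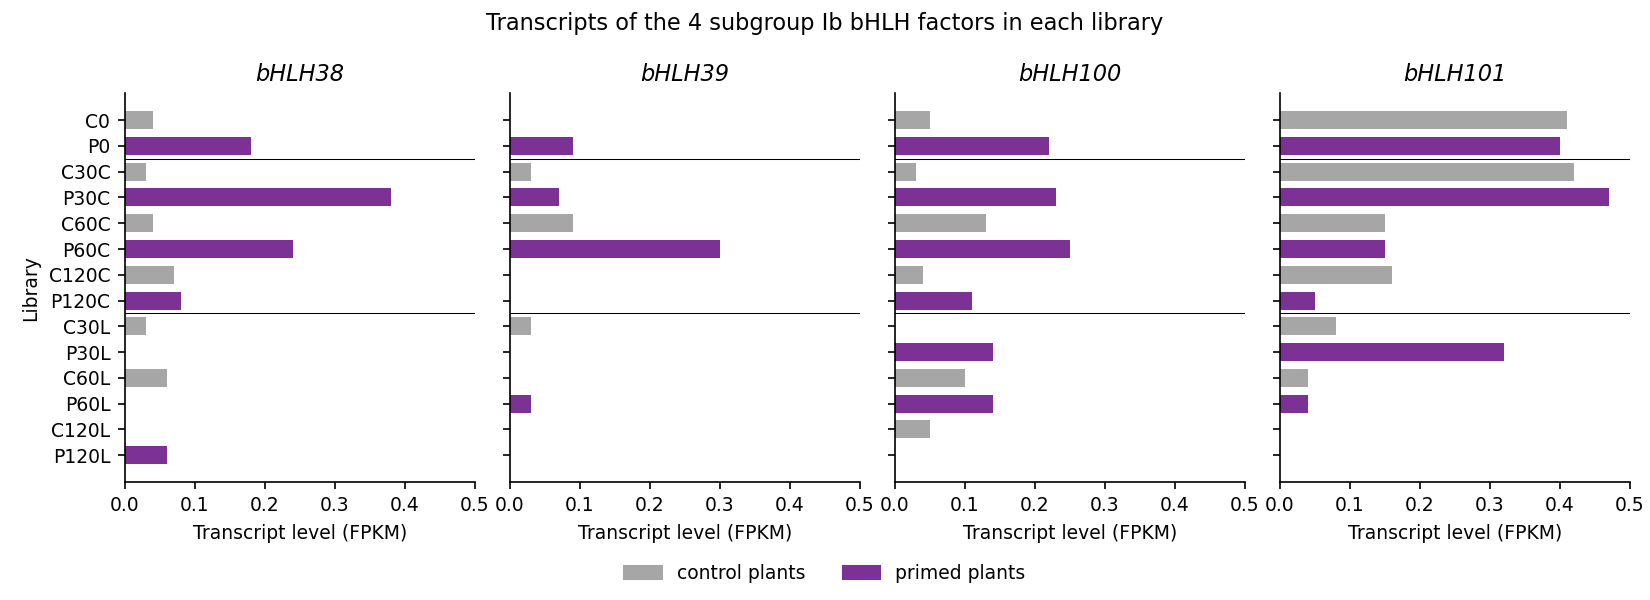
Transcript levels in FPKM of bHLH38, bHLH39, bHLH100 and bHLH101 (1 panel each, common axis from 0 to 0.5) in all 14 libraries, control plants in grey and primed plants in purple, with lines between untriggered, cold-triggered and light-triggered libraries. A missing bar is a gene listed at 0; the purple bars of bHLH38 in P0, P30C and P60C (0.18, 0.38 and 0.24 FPKM) exceed the grey bars above them, and bHLH101 has no bar after 120 min of light.

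Before triggering, none of the 4 analysed genes differed by 1.5-fold between primed and control plants (3.11% of all analysed genes did). The log2 ratios P0/C0 were 0.16 for PYE, -0.28 for FER1, -0.10 for FER3 and -0.32 for FER4. Under triggering the count was also 0 of 24, where 4.19%, 4.81% and 2.17% of all genes were past the threshold in cold, at 30, 60 and 120 min in turn, and 3.45%, 6.19% and 6.39% in light. The largest of the 24 values were those of PYE, at log2 0.53 in P30C/C30C (interval 0.19 to 0.88) and 0.45 in P60C/C60C (interval -0.04 to 0.92). The first of these rests on C30C. At 120 min of cold PYE was at -0.24 (interval -0.89 to 0.38).

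FER3 was lower in primed plants in 7 of 7 pairs, by log2 -0.09 to -0.25, as were 2.11% of analysed genes. FER1 was lower in 6 of 7, by -0.07 to -0.38, with P30L/C30L as the exception at 0.38 (interval 0.31 to 0.45). FER4 was lower in 5 of 7. These directions held with both scalings between libraries and with 1 FPKM added. Every one of these ratios was within 1.5-fold. With no replicate, it is not known whether differences of this size exceed those between 2 pools of the same plants.

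**Figure D4:**
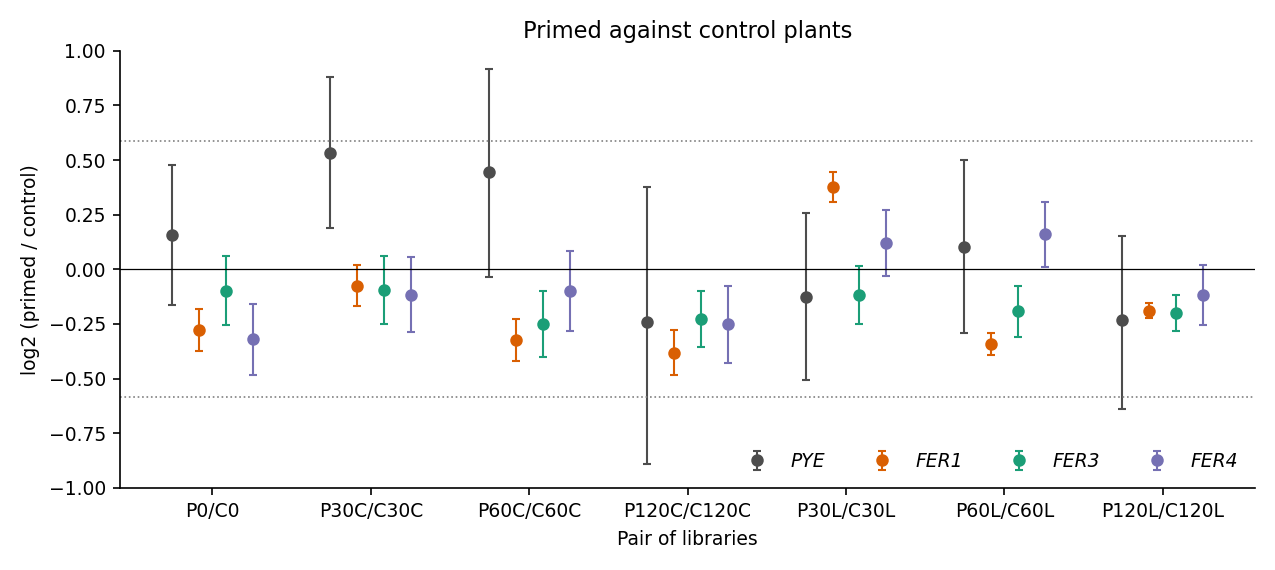
log2 ratio of primed to control plants for PYE, FER1, FER3 and FER4 in the 7 pairs of libraries, with 95% intervals for counting error only; dotted lines mark 1.5-fold either way. All points lie between the dotted lines, FER3 is below 0 in every pair, and FER1 is above 0 only after 30 min of light, at 0.38.

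The genes around these members were read from 4 lists with 48 other iron genes, of which 30 were analysed. The lists were chosen with earlier results of these data known. Their shares beside those of all genes are therefore descriptions only. After 120 min of light 8 were higher and 11 lower in control plants, together 63.3% of the 30 against 30.3% of all analysed genes, and 8 and 7 in primed plants (50% against 25.9%). After 120 min of cold 1 was higher and 7 lower in control plants, and 0 and 8 in primed plants (26.7% each, against 16.9% and 18.5%). Before triggering 0 of 30 differed between primed and control plants, where 3.11% of all analysed genes did.

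Iron mobilisation and transport had 17 of 19 genes analysed, with 4 higher and 8 lower after 120 min of light in control plants. FRO6, the ferric reductase of the leaf cell membrane, went from 107 to 8.05 FPKM (log2 -3.73). OPT3, which loads iron into the phloem, went from 92.5 to 19.1 FPKM (-2.28). FRO7, the ferric reductase of the chloroplast, and FRO3, that of mitochondria, had log2 ratios of -1.94 and -1.86. In primed plants FRO6 was at 109 and then 12.1 FPKM (-3.17), OPT3 at 91.5 and 26.9 FPKM (-1.77), FRO7 at -1.71 and FRO3 at -1.99. The 4 that rose were NRAMP3 (1.58), which releases iron from the vacuole, the nicotianamine-metal carriers YSL2 (1.57) and YSL1 (1.33), and the nicotianamine synthase NAS3 (1.27). IMA3, the third IRON MAN peptide in this list and far more abundant than IMA1 and IMA2, fell from 24.1 to 7.10 FPKM in light (-1.76) and to 8.55 FPKM in cold (-1.49) in control plants. In primed plants it fell from 28.1 to 4.93 FPKM in light (-2.51) and to 12.7 FPKM in cold (-1.14).

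In the cold the same list had 1 gene higher (NAS3, 0.60) and 6 lower in control plants after 120 min, among them FRO7 (-1.06), OPT3 (-0.92) and the vacuolar nicotianamine carrier ZIF1 (-0.91). Of the known PYE targets, ZIF1 was past 1.5-fold in C120C/C0, and NAS4 (log2 -0.37) and FRO3 (-0.51) were not. In P120C/P0 both ZIF1 (-1.04) and FRO3 (-0.65) were past it, and NAS4 (0.12) was not.

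Of the 9 upstream regulators 6 were analysed. BTS, the ubiquitin ligase that marks bHLH factors for degradation when iron is sufficient, fell from 17.6 FPKM in C0 to 9.32 FPKM in C120C (-0.92) and to 6.85 FPKM in C120L (-1.36), and from 18.4 FPKM in P0 to 8.23 FPKM in P120C (-1.16) and 7.66 FPKM in P120L (-1.27). bHLH34, which activates subgroup Ib genes, rose in light, from 15.2 to 26.8 FPKM in control plants (0.82) and from 13.4 to 25.7 FPKM in primed plants (0.94). URI, the partner of those activators, went from 18.6 to 10.8 FPKM in C120L (-0.79) and from 17.4 to 12.1 FPKM in P120L. Of the 9 genes of iron storage and surplus 5 were analysed, and 2 rose after 120 min of light in both kinds of plants: the cytosolic ascorbate peroxidase APX1 (1.32 and 1.37) and the iron-sulphur protein NEET (0.76 and 0.75). Of the root iron uptake list only BGLU42 and FPN1 were analysed, at 0.69 and -0.68 in C120L/C0. With scaling by the reference genes, BGLU42 in C120L/C0 and NEET in P120L/P0 were short of the threshold.

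Between primed and control plants, 3 of the 30 were higher in P30C than in C30C, where 4.19% of all analysed genes were past the threshold in either direction: VTL2, a vacuolar iron carrier (0.96), NAS4 (0.66) and IMA3 (0.61). All 3 ratios rest on C30C, and 3 of 7 phloem markers were higher in the same comparison; their part was not tested. After 120 min of light NAS1 (0.77) and FRO6 (0.59) were higher and NRAMP3 (-0.76) and YSL2 (-0.68) lower in primed plants, where 6.39% of all analysed genes were past the threshold. The scalings by reference genes and by median ratio shifted P120L/C120L by log2 -0.067 and -0.074 and P30C/C30C by -0.064 and -0.056. Either scaling took FRO6 and IMA3 short of the threshold. At the other 4 triggered pairs the count was 0 of 30. Of all analysed genes 4.81% were past the threshold in P60C/C60C, 2.17% in P120C/C120C, 3.45% in P30L/C30L and 6.19% in P60L/C60L. With 30 genes, a count of 0 cannot be told apart from such shares.

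**Figure D5:**
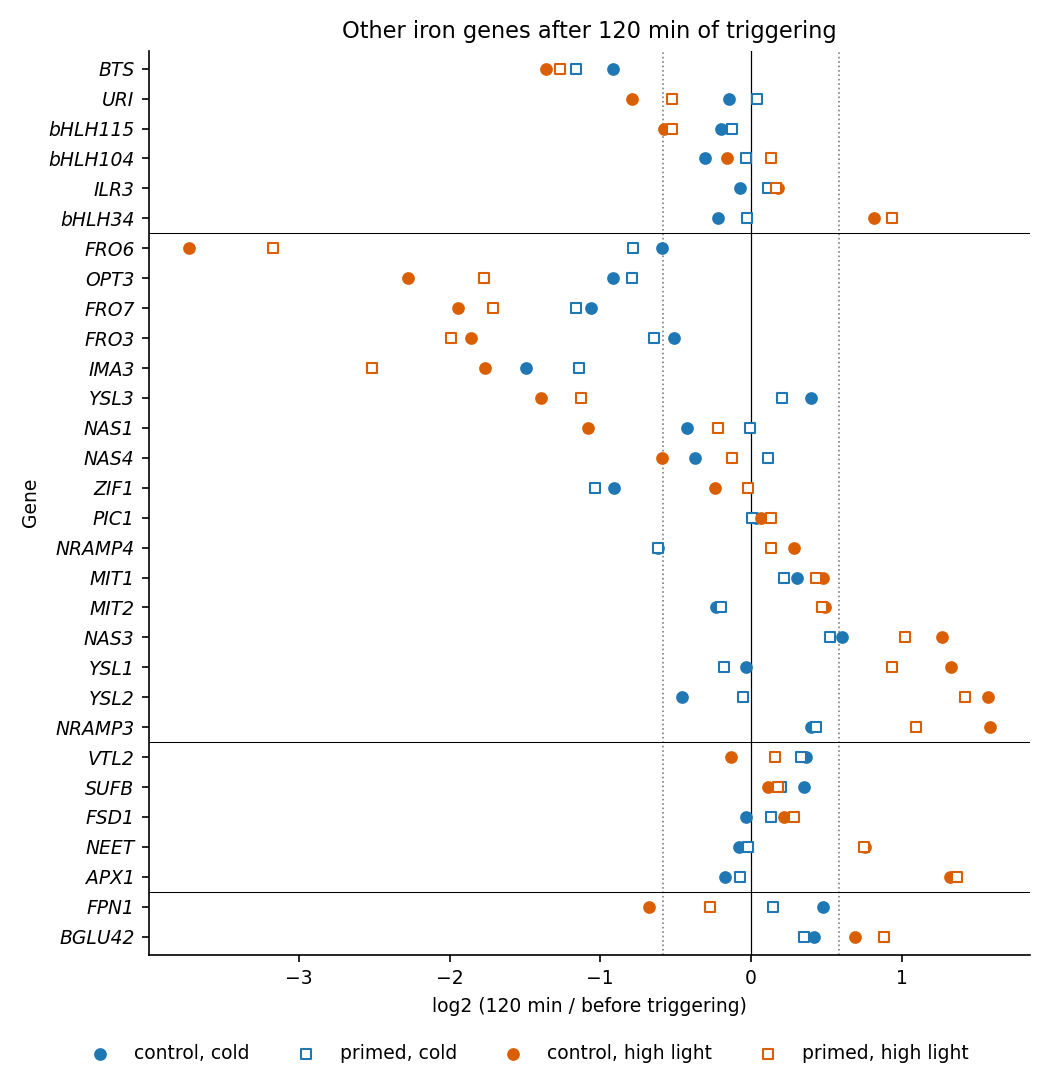
log2 ratio of the level after 120 min of triggering to that before it, for the 30 analysed genes of the 4 other iron lists, from top to bottom upstream regulators, mobilisation and transport, storage and surplus, and root uptake, separated by lines and sorted by the light response of control plants. Circles are control and squares primed plants, blue is cold and orange light, and dotted lines mark 1.5-fold; FRO6 lies farthest left, at -3.73 and -3.17 in light, and NRAMP3 farthest right, at 1.58 in control plants.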

How the data were processed

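Poly(A)-enriched RNA from pooled rosettes was sequenced in 14 libraries, 1 per condition. The authors aligned the reads to TAIR10, with Bowtie2 and RSEM per the paper's methods and HISAT2 2.1.0 per the submitters' processing notes, and deposited 1 table of FPKM per gene. The main values are these FPKM unaltered: libraries were not rescaled and nothing was added before taking ratios. Ratios were to C0 or P0 (responses), of primed to control plants, and of light to cold at the same time, with a threshold of 1.5-fold; the filter on low values is given with the first result. Samples were grouped by their labels. Fragments per gene were estimated from the smallest FPKM steps, and exact binomial 95% intervals of their ratios were computed with SciPy 1.17.1. They cover counting error only and not the differences between pools of plants. Amplified fragments are not independent molecules, so the intervals can be too narrow even for counting error. Sequences and coordinates came from the RefSeq TAIR10.1 genome, with coding sequences aligned in Biopython 1.88. The region before FER4 is not reported here. NumPy 2.4.6, pandas 2.3.3 and matplotlib 3.10.9 under Python 3.11.15 did the rest, and the scripts were tested on simulated data.

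The members, the lists of other iron genes and the marker lists were chosen with earlier results of these data known, and the 9 further root genes after the values here were seen. Named genes are all members, and up to 4 genes per list and comparison with the largest ratio past the threshold. Of the 5 genes nearest to each of bHLH39, IMA1 and FER1, all are named for FER1 and only the nearest for bHLH39 and IMA1. BTS, URI and the PYE targets NAS4, FRO3 and ZIF1, the root genes and primed values beside control values were named outside that rule. The alternatives tried were a threshold of 2-fold, 1 FPKM added to each level, scaling by 8 reference genes or by the median ratio, a stricter filter (a mean of 10 FPKM), none at all, the geometric mean of C0 and P0 as baseline, and, chosen after seeing the data, single libraries left out. The senescing leaf markers, 5 genes, had summed levels of 36.3 to 36.4 FPKM untriggered and 18.0 to 61.6 FPKM in triggered plants.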

Additional observations from a re-analysis of the deposited data

Results flagged for a closer look

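FER4 was picked out because its primed plants were on opposite sides of their start under the 2 triggers at all 3 times. The log2 ratios to P0 in the cold were -0.057 at 30 min, -0.041 at 60 min and -0.0058 at 120 min, and those in light were 0.32, 0.43 and 0.67. Each value is 1 library, the cold values are near 0, and the difference was not tested.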

How the results depend on the processing

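No paired analysis of replicates was possible because each condition is 1 library. The pairs of conditions matched in time and trigger were counted by direction, not tested. Of the values of the 4 analysed members under the alternatives, 597 kept their side of the threshold and 23 fell short of it. A further 3 passed it anew and 0 of the called ones changed direction. The other iron genes are not in these counts. The stricter filter and the lack of one alter neither ratios nor threshold, so under them a value could only keep its side. Those values are among the 597 and say nothing about stability. A 2-fold threshold left 1 of 12 member values past it in primed plants in the cold. In light it left 3 of 12 in control and 4 of 12 in primed plants. With a mean of at least 10 FPKM, which drops PYE, 1 of 9 values was past 1.5-fold in the cold in control and 1 of 9 in primed plants. Without the filter, members with few fragments entered, and ratios with a level of 0 were left out. The cold responses then had 14 of 27 values past 1.5-fold in control and 12 of 29 in primed plants. The light responses had 14 of 24 and 20 of 24. Before triggering the count was 2 of 9, and for priming it was 11 of 29 in cold and 2 of 21 in light. Light against cold gave 11 of 25 in control and 13 in primed plants. No share of all genes stands beside these counts, so they are descriptions only. Scaling by the reference genes shifted all genes by up to -0.23 (P120L/P0) on the log2 scale, and FER3 P60L/P0 (0.51), FER4 P120L/P0 (0.44), FER1 C30L/C30C (0.50) and FER4 P120L/P120C (0.47) fell short of the threshold, while PYE was higher in light in 3 of 6 pairs and not 4. The alternatives chosen after seeing the data, which left out C30C, P30C or P60C, kept every count within 1.5 times. Leaving out a library mainly removes its own comparisons, so this says little about stability. Depth limits the bHLH and IMA genes, whose levels rest on 0 to 23 estimated fragments, and 1 library per condition limits all ratios.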
